A study of Rattus norvegicus with 9 samples.

Results

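The NMDA receptor subunit genes were followed across brain tissue of male rats hybridised to Clariom D arrays. The members, Grin1, Grin2a, Grin2b, Grin2c, Grin2d and Grin3a, were chosen by name: a row of the deposited table counted if the platform annotation gave it exactly 1 gene symbol and that symbol was a member. Each of the 6 genes had 1 such row and no row shared with another symbol, among 22093 genes with a single symbol. All 6 passed the filter on signal that left 15522 genes for testing. That filter used the mean over all 9 arrays.

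The groups were bilateral hippocampus after transcranial focal stimulation (TFS), bilateral hippocampus of sham rats and bilateral parietotemporal cortex of sham rats, with 3 arrays each. TFS is an electrical stimulation applied through the scalp, given here to healthy rats at 300 Hz and 50 mA for 5 min, with tissue taken 4 h later. Sham rats were handled alike without current. The sources used here give no strain or age, and the labels do not say whether each array is a separate rat, so p-values measure the spread between these arrays, which may be technical. Cortex of stimulated rats was not analysed here.

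NMDA receptors are glutamate-gated cation channels that open when glutamate and a co-agonist, glycine or D-serine, are bound and depolarisation lifts a magnesium block. Calcium entering through them drives synaptic plasticity, for which the hippocampus is the best studied region. Every such channel contains GluN1, encoded by Grin1, which carries the co-agonist site. The GluN2 subunits, encoded by Grin2a to Grin2d, bind glutamate and set the channel's kinetics and magnesium sensitivity, and GluN3A, encoded by Grin3a, binds glycine and lowers calcium permeability.

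Signals are log2 values of the array, so a difference of 1 is a doubling of signal. Array medians lay between 4.95 and 5.04, and the gap between the medians of positive and of negative control probe sets was 3.67 on the weakest array. Of 1153 negative control probe sets, 95% had a mean below 7.57. Grin1, Grin2a and Grin2b lay above this limit on all 9 arrays, while Grin2c, Grin2d and Grin3a lay below it on all 9. A signal below the limit is not shown to be background alone, but there a log2 difference describes the signal and does not measure the ratio of transcript. The first principal component of the tested genes (67.9% of the variance) separated cortex from hippocampus. The second (8.96%) set apart sham array 1 of cortex and sham array 1 of hippocampus. The tests of single members were therefore refitted without these 2 arrays, and several of these refits are given below. Gene lists, markers and within-array differences were not summarised without both arrays. Tissue markers went with the labels: of 5 tested hippocampal markers 4 were higher in sham hippocampus and 0 lower (median difference 1.26), and of 7 tested cortical markers 4 were lower and 1 higher (median difference -0.61).

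**Figure D1:**
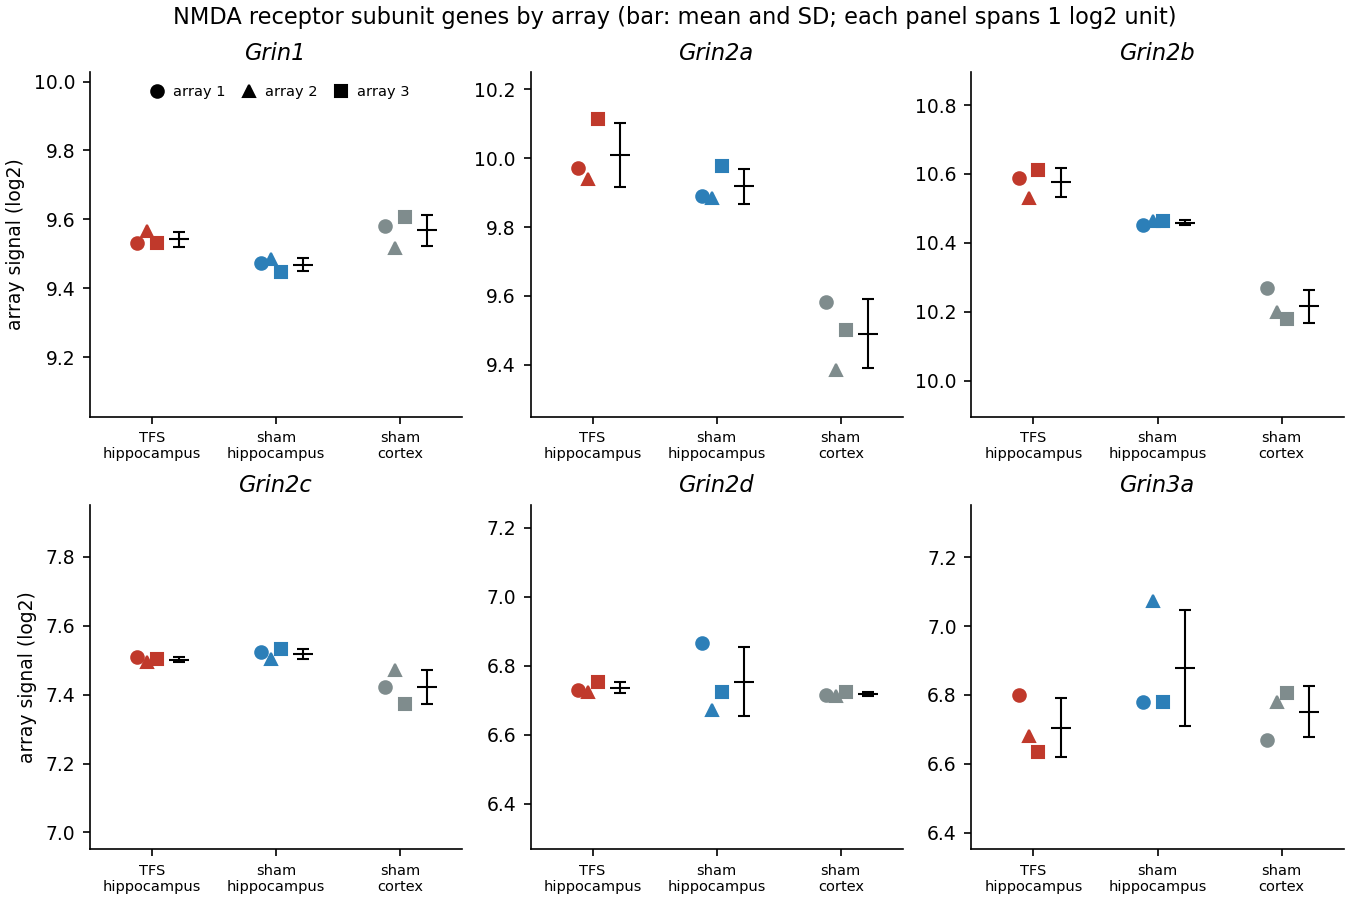
Array signal (log2, vertical axis) of the 6 subunit genes in TFS hippocampus, sham hippocampus and sham cortex; each symbol is 1 array, its shape giving the array number, and the bar gives mean and SD (n = 3). Each panel spans 1 log2 unit: Grin2a and Grin2b lie higher on all 6 hippocampal arrays than on any cortical array, while Grin2d and Grin3a overlap across all 3 groups.

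The comparison of sham hippocampus with sham cortex asked how the subunit genes differ between these regions without stimulation. Grin2a and Grin2b were higher in hippocampus, by 1.35-fold and 1.18-fold. Grin1 was lower, at 0.933-fold of the cortical signal. Grin2c was higher in signal by 0.097 log2 units, with all its arrays in the background range. Both were just inside the threshold. Grin2d and Grin3a did not pass the test. Thus 4 of 6 members passed at an adjusted p under 0.05 (limma over all 15522 genes, Benjamini-Hochberg), where 12.4% of all tested genes did. The arrays of the regions did not overlap for the same 4 genes, 3 of them higher in hippocampus, as 11.4% of tested genes were without overlap, and 1 lower, as 12.7% were. By direction of the call, 3 members were higher, where 5.99% of tested genes were, and 1 was lower, where 6.46% were. Brighter genes passed more often: among the 4466 genes with a mean above the negative control limit, 21.6% did.

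Grin2a encodes GluN2A, the subunit whose share of forebrain receptors grows during postnatal development. Its signal was 9.89, 9.89 and 9.98 on the sham hippocampal arrays, against 9.58, 9.38 and 9.50 on the cortical ones. The groups did not overlap, and the lowest hippocampal array lay above the highest cortical one by more than the spread of either group. The means were 9.92 ± 0.051 in sham hippocampus and 9.49 ± 0.10 in sham cortex (SD, n = 3 each). The difference was 0.43 (SE 0.063, 95% confidence interval 0.28 to 0.58, adjusted p = 0.00444 by limma). In size it exceeded that of 95.1% of the tested genes. Without both sham arrays numbered 1 it was 0.49 (adjusted p = 0.0253 by limma).

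Grin2b encodes GluN2B, which predominates in the forebrain early in life and persists in adult hippocampus and cortex. Its signal was 10.45, 10.46 and 10.46 on the sham hippocampal arrays and 10.27, 10.20 and 10.18 on the cortical ones, without overlap. The hippocampal arrays differed from each other by no more than 0.014, the narrowest range of any member in that group. The difference between the regions was 0.24 (SE 0.030, 95% confidence interval 0.17 to 0.31, adjusted p = 0.00194 by limma), and 0.27 without both sham arrays numbered 1 (adjusted p = 0.00993 by limma). Grin2a and Grin2b stayed past the threshold under all 21 alternatives run, with adjusted p up to 0.0427 and 0.0451 by limma, both in the fit that paired the 6 sham arrays by number.

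Grin1, the gene of the subunit shared by all NMDA receptors, ran the other way. It measured 9.47, 9.49 and 9.45 in sham hippocampus and 9.58, 9.52 and 9.61 in sham cortex. The arrays did not overlap, although the gap between the nearest arrays was smaller than the spread within cortex. The difference was -0.099 (SE 0.026, adjusted p = 0.0492 by limma). Pairing the sham arrays by number ended the call (adjusted p = 0.194 by limma), as did leaving out both sham arrays numbered 1 (adjusted p = 0.191 by limma). Leaving out 1 array at a time also ended it in 8 of 9 refits, at adjusted p = 0.0684 to 0.153 by limma; without cortical array 2 it was 0.0124.

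Grin2c encodes GluN2C, best known from cerebellar granule cells and found in forebrain glia. Its signal was 7.52, 7.50 and 7.53 in sham hippocampus and 7.42, 7.47 and 7.37 in sham cortex, with no overlap and with every value in the background range. The difference was 0.097 (SE 0.026, adjusted p = 0.0497 by limma). It too was lost when the sham arrays were paired by number (adjusted p = 0.202 by limma) and without both sham arrays numbered 1 (adjusted p = 0.185 by limma). With 1 array left out its adjusted p lay between 0.0747 and 0.149 by limma, except for 0.0124 without cortical array 2.

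Promoter windows from the RefSeq table (build GRCr8, 250 bases before to 50 after the gene's start) show sequence context for members past this test. They are printed for Grin1 and Grin2c, called in opposite directions between the regions in the setting reported. These calls were lost under 17 and 16 of 21 alternatives. The table matched 4 of the 6 members, Grin1, Grin2c, Grin2d and Grin3a. Both windows are on the minus strand, at chr3:28528705-28529004 for Grin1 and at chr10:101005089-101005388 for Grin2c, and read 5′ to 3′. Capitals mark the GC box GGGCGG, the core letters bound by Sp1-type zinc finger factors, searched on both strands.
Grin1: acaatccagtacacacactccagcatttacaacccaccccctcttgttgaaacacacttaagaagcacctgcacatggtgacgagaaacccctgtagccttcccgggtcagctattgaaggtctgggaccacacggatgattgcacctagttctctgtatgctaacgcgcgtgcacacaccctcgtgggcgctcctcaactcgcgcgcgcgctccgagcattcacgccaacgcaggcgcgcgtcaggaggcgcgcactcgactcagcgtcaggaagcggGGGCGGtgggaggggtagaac
Grin2c: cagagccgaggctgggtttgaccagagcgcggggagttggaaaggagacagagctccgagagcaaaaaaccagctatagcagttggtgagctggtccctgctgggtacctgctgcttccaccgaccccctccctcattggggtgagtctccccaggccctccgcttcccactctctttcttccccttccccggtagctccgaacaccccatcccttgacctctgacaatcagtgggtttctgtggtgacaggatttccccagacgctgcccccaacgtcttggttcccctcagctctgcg
The Grin1 window held 1 GC box, starting at base 280 of the window and so after the gene's start. The other 3 matched windows held 0. At least 1 was present in 33.1% of all 33469 promoter windows given by RefSeq. The cyclic AMP response element TGACGTCA, a palindrome, was in 1.83% of all windows and in 0 of these 4. Their GC content was 58.7% to 60.7%, against a median of 51.7% over all windows. These matches describe the letters of the windows only.

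Grin2d encodes GluN2D, a subunit of interneurons and of the diencephalon and brainstem. Its signal was 6.87, 6.67 and 6.72 in sham hippocampus and 6.72, 6.71 and 6.72 in sham cortex. Sham hippocampal array 1 was high and array 2 low, so the cortical range lay inside the hippocampal one. The difference was 0.036 (SE 0.045, adjusted p = 0.661 by limma) and turned to -0.020 without sham hippocampal array 1. The value 6.72 was shared exactly by 3 of the 9 arrays.

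Grin3a encodes GluN3A, which is most abundant in the early postnatal brain. It measured 6.78, 7.07 and 6.78 in sham hippocampus and 6.67, 6.78 and 6.81 in sham cortex. Only sham hippocampal array 2 stood above the cortical range. The difference was 0.13 (SE 0.087, 95% confidence interval -0.076 to 0.33, adjusted p = 0.410 by limma), and 0.029 without that array. The value 6.78 was likewise shared exactly by 3 arrays.

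**Figure D2:**
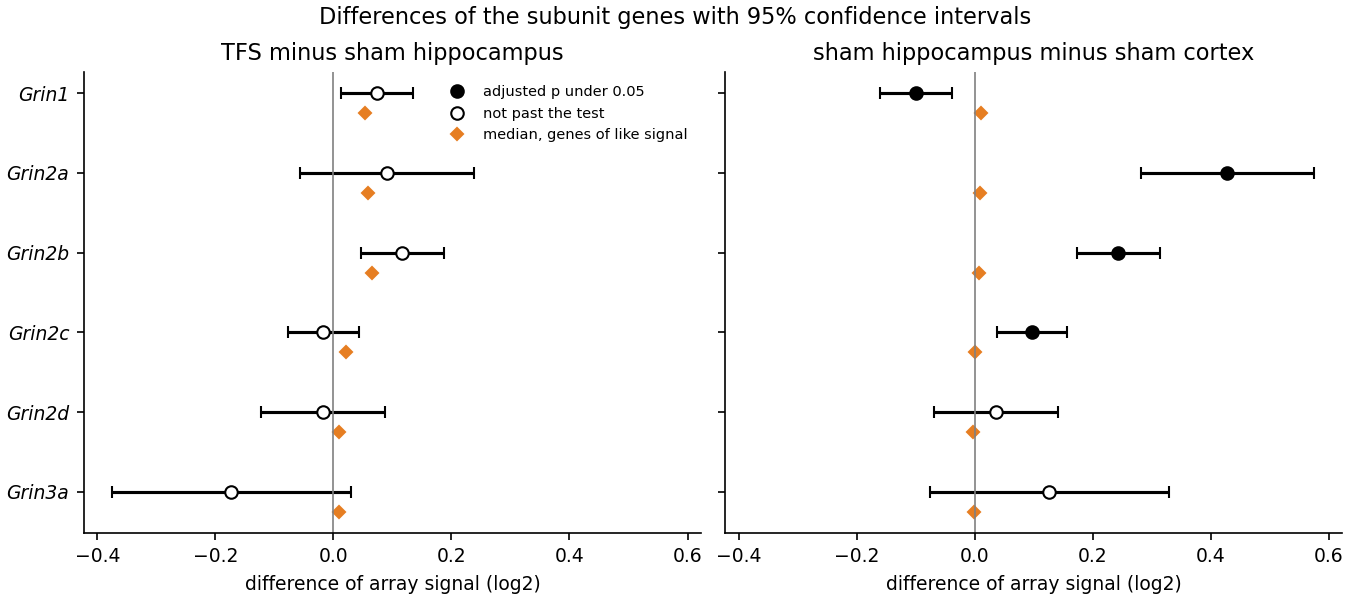
Log2 differences of array signal (horizontal axis) with 95% confidence intervals for TFS minus sham hippocampus and for sham hippocampus minus sham cortex; filled circles passed limma at an adjusted p under 0.05, and diamonds give the median difference of all tested genes within 0.5 log2 units of the member's mean signal. For TFS the medians of genes as bright as Grin1, Grin2a and Grin2b lie at 0.053 to 0.065; between the regions they lie at 0.0075 to 0.010.

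The comparison of TFS hippocampus with sham hippocampus asked whether subunit transcripts differed 4 h after stimulation. No member passed, and neither did any other gene: of 15522 genes limma put 0 (0%) past the threshold of 0.05 on the adjusted p. At an unadjusted p under 0.05 there were 805 genes (5.19%), 679 of them higher (4.37%). Of the members, Grin1 and Grin2b had an unadjusted p under 0.05, both with higher values, where 10% of the genes with a mean above the negative control limit had. For these 2 genes the lowest TFS array exceeded the highest sham array. The same was true of 8.57% of all tested genes and of 19.3% of those with a mean above the negative control limit.

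Grin2b measured 10.59, 10.53 and 10.61 on the TFS arrays, against 10.45, 10.46 and 10.46 on the sham hippocampal arrays. It averaged 10.58 ± 0.042 in TFS hippocampus and 10.46 ± 0.0075 in sham hippocampus (SD, n = 3 each). The difference of 0.12 (SE 0.030, 95% confidence interval 0.047 to 0.19, adjusted p = 0.770 by limma) amounts to 1.08-fold. The 267 tested genes within 0.5 log2 units of its mean signal had a median difference of 0.065. After quantile normalization of the tested genes the Grin2b difference was 0.064.

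Grin1 measured 9.53, 9.57 and 9.53 after TFS and 9.47, 9.49 and 9.45 in sham hippocampus. TFS arrays 1 and 3 shared the value 9.53 exactly. The difference of 0.073 (SE 0.026, adjusted p = 0.921 by limma) amounts to 1.05-fold. The upper end of its 95% confidence interval, 0.012 to 0.13, corresponds to a 1.10-fold difference. The 685 tested genes of like signal had a median of 0.053. After quantile normalization it was 0.019.

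Grin2a measured 9.97, 9.94 and 10.11 after TFS and 9.89, 9.89 and 9.98 in sham hippocampus. TFS array 3 was the highest of the 9 arrays, and the other TFS arrays lay within the sham range. The difference was 0.091 (SE 0.063, 95% confidence interval -0.057 to 0.24, adjusted p = 0.923 by limma). It was 0.038 without TFS array 3 and 0.024 after quantile normalization. The 519 genes of like signal had a median of 0.058.

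The members in the background range did not pass either. Grin2c measured 7.51, 7.49 and 7.50 after TFS and 7.52, 7.50 and 7.53 in sham hippocampus, a difference of -0.017 (95% confidence interval -0.077 to 0.043, adjusted p = 0.959 by limma). Grin2d measured 6.73, 6.72 and 6.75 after TFS and 6.87, 6.67 and 6.72 in sham hippocampus. The TFS arrays fell inside the sham range, and the difference of -0.018 (adjusted p = 0.981 by limma) turned to 0.038 without sham array 1. Grin3a measured 6.80, 6.68 and 6.63 after TFS and 6.78, 7.07 and 6.78 in sham hippocampus. Its difference of -0.17 was the largest in size among the members and had the widest interval (SE 0.087, 95% confidence interval -0.38 to 0.030, adjusted p = 0.923 by limma). Without sham array 2, the high one, it was -0.076. With 1 array left out it ranged from -0.22 to -0.076, and without both sham arrays numbered 1 it was -0.22.

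Over the 3 groups the order of the levels differed between genes. Grin2b was highest in TFS hippocampus, then sham hippocampus, then sham cortex, with no overlap between neighbours. Grin2a had the same order, with overlap between TFS and sham hippocampus. Grin1 averaged 9.54 ± 0.021 in TFS hippocampus, 9.47 ± 0.019 in sham hippocampus and 9.57 ± 0.046 in sham cortex (SD, n = 3 each). The TFS arrays lay inside the cortical range, and the sham hippocampal arrays lay below both. Grin2c was lowest in cortex, and TFS and sham hippocampus overlapped. Both comparisons share the sham hippocampal arrays, so a low or high value there enters them with opposite signs.

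Changes were also set against one another within each array. The difference of 2 genes' log2 signals on an array has no meaning as a level, since their probes differ, but its change between groups shows whether both genes moved alike. In sham hippocampus, relative to sham cortex, Grin2a gained 0.53 on Grin1, Grin2b gained 0.34, Grin3a 0.23 and Grin2c 0.20. The arrays of the regions did not overlap for these 4 gene pairs. All 4 share Grin1, which by itself differed by -0.099, so they are not separate observations. Grin3a by itself overlapped between the regions (0.13, adjusted p = 0.410 by limma). No share over other gene pairs was computed. Grin2b lost ground to Grin2a, by a difference of -0.18, again without overlap. Each of these 5 reached p = 0.1 in the exact two-sided permutation test, the smallest that 3 against 3 arrays allow (0.12 adjusted over the 6 differences). Grin2d gained 0.14 on Grin1 with overlapping arrays (exact permutation p = 0.2). Grin2c, Grin2d and Grin3a are in the background range, so their gains describe signal. Without sham hippocampal array 2 the Grin3a gain was 0.14, and without sham hippocampal array 1 the Grin2d gain was 0.081.

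Between TFS and sham hippocampus the same measure moved little for the bright subunits. Grin2b gained 0.044 on Grin1, Grin2a gained 0.017, and Grin2b gained 0.026 on Grin2a, all with overlapping arrays (exact permutation p = 0.4, 0.8 and 0.5). Grin2c changed by -0.090 and Grin3a by -0.25 relative to Grin1 without overlap (exact permutation p = 0.1 each, 0.3 adjusted over the 6 differences), and Grin2d by -0.091 with overlap (exact permutation p = 0.3). All 3 of these genes are in the background range. Each of these changes includes the Grin1 difference of 0.073, while Grin2c by itself differed by -0.017. Genes of like signal had median differences of 0.053 for Grin1 and 0.022 for Grin2c. Without sham array 2 the Grin3a change was -0.16, and without sham array 1 the Grin2d change was -0.037. The Grin2b gain on Grin1 was 0.020 without TFS array 3 and 0.079 without TFS array 2.

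Genes that act on the receptor were described by lists of its partners, whose counts stand beside 12.4% of all tested genes passing between the regions and 21.6% of those above the negative control limit. Between the regions, 10 of 18 tested anchoring genes passed limma, 3 higher and 7 lower in sham hippocampus (median difference 0.0094, against -0.0044 over all tested genes). Neto1, an auxiliary protein of glutamate receptors, was higher by 0.82 (adjusted p = 0.00105), while the postsynaptic scaffold genes Shank2 and Shank1 fell by 0.36 and 0.25 (adjusted p = 0.00101 and 0.00165). Of 24 kinases and signalling enzymes 7 were higher and 3 lower (median 0.088). A mean signal in the background range was found for 5 of these 24 genes and for 1 of the 18 anchoring genes. Ptk2b, the kinase Pyk2 that acts through Src on the receptor, was higher by 0.67 and the protein kinase C gene Prkca by 0.58 (adjusted p = 0.000104 and 0.000140). Camk2d, an isoform of calcium/calmodulin-dependent kinase II, measured 7.11, 7.37 and 7.24 in sham hippocampus and 8.45, 8.87 and 8.51 in sham cortex (adjusted p = 0.00135). Its signal difference of -1.37 is not a measured ratio of transcript, since the sham hippocampal arrays lie in the background range.

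The transport and co-agonist lists had called shares near those of all tested genes. Of 20 transport genes 1 was higher and 1 lower (median -0.020): Lin7c at 0.37 and Lin7a at -0.36 (adjusted p = 0.0433 and 0.0203), both encoding PDZ adaptors of the complex that carries GluN2B along dendrites. A mean signal in the background range was found for 6 of the 20 transport genes. Of 13 tested genes for co-agonist handling 2 were higher and 0 lower (median 0.095). These were the glycine transporter gene Slc6a9 at 0.32 and Ddo, encoding D-aspartate oxidase, at 0.24 (adjusted p = 0.0250 and 0.0308 by limma). Slc6a9 had 1 exact value, 9.16, on sham hippocampal arrays 1 and 3 and on TFS array 1. Such sharing may narrow the spread behind its p-value. Ddo lay in the background range on all 9 arrays, and 8 of the 13 genes, Ddo among them, had a mean signal in that range. Among genes named for NMDA or delta receptors Grina was higher by 0.18 (adjusted p = 0.00427), and Grid1 and Grin3b had differences of 0.11 and -0.0020 (adjusted p = 0.163 and 0.993), with Grin3b in the background range.

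After TFS 0 of these 78 listed genes passed limma, and 6 had higher and 1 had lower values at an unadjusted p under 0.05. In either direction 5.19% of all tested genes had such a p. Higher values at that p were found in 4.37% of all tested genes and in 10% of those above the negative control limit. The list medians were 0.018 for anchoring, 0.035 for kinases and signalling, 0.026 for transport and 0.021 for co-agonist handling, against 0.011 over all tested genes and 0.039 over those above the negative control limit. Grina, a membrane protein gene that is no receptor subunit, had the smallest p of the lists. It measured 9.40, 9.46 and 9.39 after TFS and 9.29, 9.27 and 9.25 in sham hippocampus, a difference of 0.14 (SE 0.026, adjusted p = 0.567 by limma), without overlap. Ptpn5, encoding the phosphatase STEP that acts on GluN2B, was the one with lower values and measured 8.08, 8.09 and 8.10 after TFS against 8.16, 8.15 and 8.12 in sham hippocampus (difference -0.055, adjusted p = 0.904 by limma). The other 5 with higher values were kinase genes Ptk2b (0.11) and Prkca (0.091) and transport genes Ap2m1 (0.055), Dpysl2 (0.11) and Nsf (0.12). Their adjusted p was 0.820 to 0.923 by limma, and their mean signals were 9.87 to 10.92. Tested genes within 0.5 log2 units of Grin2a (mean 9.81) and Grin2b (mean 10.42) had median differences of 0.058 and 0.065. All sham cortical arrays shared 1 exact value for Ap2m1 (10.34). So did 2 sham hippocampal arrays for Dpysl2 (10.81) and for Prkca (10.01). Shared values may narrow the spread behind these p-values.

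**Figure D3:**
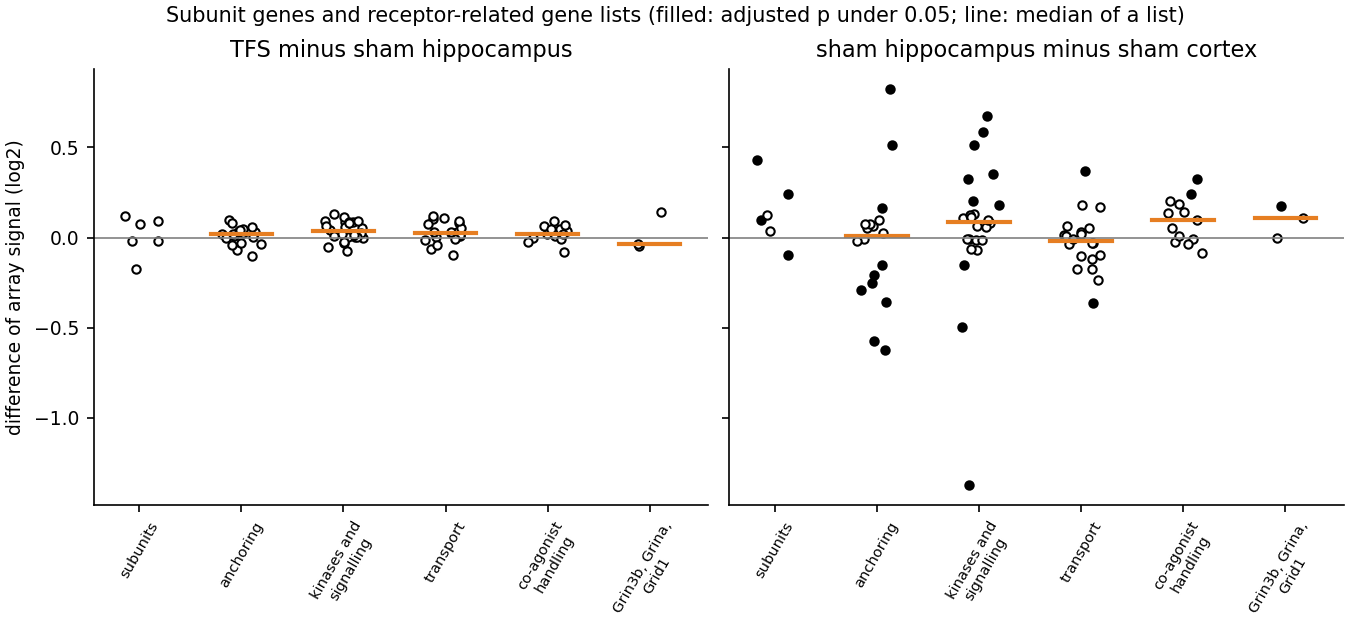
Log2 differences of array signal (vertical axis) for the 6 subunit genes and for the tested genes of 5 receptor-related lists, in TFS minus sham hippocampus and in sham hippocampus minus sham cortex; each circle is a gene, filled where limma gave an adjusted p under 0.05, and the line is the list's median. After TFS 0 genes are filled and the points run from -0.17 for Grin3a to 0.14 for Grina, while between the regions they run from -1.37 for Camk2d to 0.82 for Neto1.

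Markers of cell types were read against the same shares of called genes, 12.4% overall and 21.6% above the negative control limit. Of 9 interneuron markers 5 were lower and 0 higher in sham hippocampus, and their mean log2 signal was 7.95 to 8.12 there and 8.42 to 8.54 in sham cortex. Of 5 tested excitatory neuron markers 2 were higher and 1 lower, with differences from -1.20 for Tbr1 to 1.02 for Neurod6, and their array means were 8.96 to 9.06 in sham hippocampus and 8.91 to 9.15 in sham cortex. Of 7 general neuron markers 1 was higher and 0 lower, with array means of 10.80 to 10.85 in sham hippocampus and 10.81 to 10.85 in sham cortex. Of 8 astrocyte markers 1 was higher and 0 lower (8.40 to 8.44 in sham hippocampus, 8.16 to 8.34 in sham cortex), and of 7 oligodendrocyte markers 2 were higher and 0 lower (8.74 to 8.85 in sham hippocampus, 8.29 to 8.69 in sham cortex). Choroid plexus markers, of which 1 of 5 tested, Ttr, passed and was higher, had array means of 6.97 to 7.94 in sham hippocampus and 5.92 to 5.99 in sham cortex. Of 5 endothelial markers 1 was lower and 0 higher, with array means of 7.13 to 7.16 in sham hippocampus and 7.30 to 7.42 in sham cortex. Of 3 oligodendrocyte precursor markers 1 was higher, of 6 microglial markers 0 passed, and of 5 tested markers of cerebellum, thalamus and striatum 1 was lower. Mean signals lay in the background range for 4 of 5 endothelial, 4 of 5 choroid plexus and 4 of 6 microglial markers. All 5 markers of cerebellum, thalamus and striatum lay there too. So did 3 of 9 interneuron, 2 of 5 excitatory neuron, 1 of 8 astrocyte and 1 of 3 oligodendrocyte precursor markers. In tissue RNA, fewer cells of a type and less RNA per cell cannot be told apart, and the part of these markers in the subunit differences was not tested. Between TFS and sham hippocampus 0 markers of these 10 lists passed limma, and 5 had an unadjusted p under 0.05, all with higher values. Such higher values occurred in 4.37% of all tested genes and in 10% of those above the negative control limit. The 5 include 1 oligodendrocyte marker, the only 1 of 7 in its list with a positive difference (list median -0.052). Choroid plexus markers varied widely between hippocampal arrays, with array means of 6.31 to 7.80 after TFS and 6.97 to 7.94 in sham. Their differences ran from -0.40 to 0.015.

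The tested genes whose signals ran most like each member over the 9 arrays were ranked by Pearson correlation, as a description without a test. The arrays form clusters by region, and the closest genes of Grin1, Grin2a and Grin2b were called between the regions in the same direction as the member. Grin2a ran closest to Ppp3ca, which encodes the catalytic subunit of calcineurin (0.992), Kcnab2 (0.992) and Epha4 (0.988). Grin2b ran closest to Ncoa1 (0.985), Adgrb2 (0.984) and the glutamate transporter gene Slc1a1 (0.982), and Grin1 to Atg9a (0.950), Eef1a2 (0.950) and Nrgn (0.937). For Grin2c the closest were Smpd3, Dgkb and Zfp521 (0.972, 0.964 and 0.962), for Grin2d Timm10, Pfkfb4 and Ccdc106 (0.997, 0.976 and 0.976), and for Grin3a Rpl27al4, Pigl and Mier1 (0.914, 0.910 and 0.906). The closest genes of Grin2d and Grin3a were not called between the regions, with differences of 0.0035 to 0.014 and of 0.018 to 0.052. Their mean signals of 5.44 to 6.62 lie in the background range, as does that of Zfp521 (6.45). Grin2d itself departed most on sham hippocampal arrays 1 and 2 (6.87 and 6.67), and 3 arrays shared 1 exact value.

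**Figure D4:**
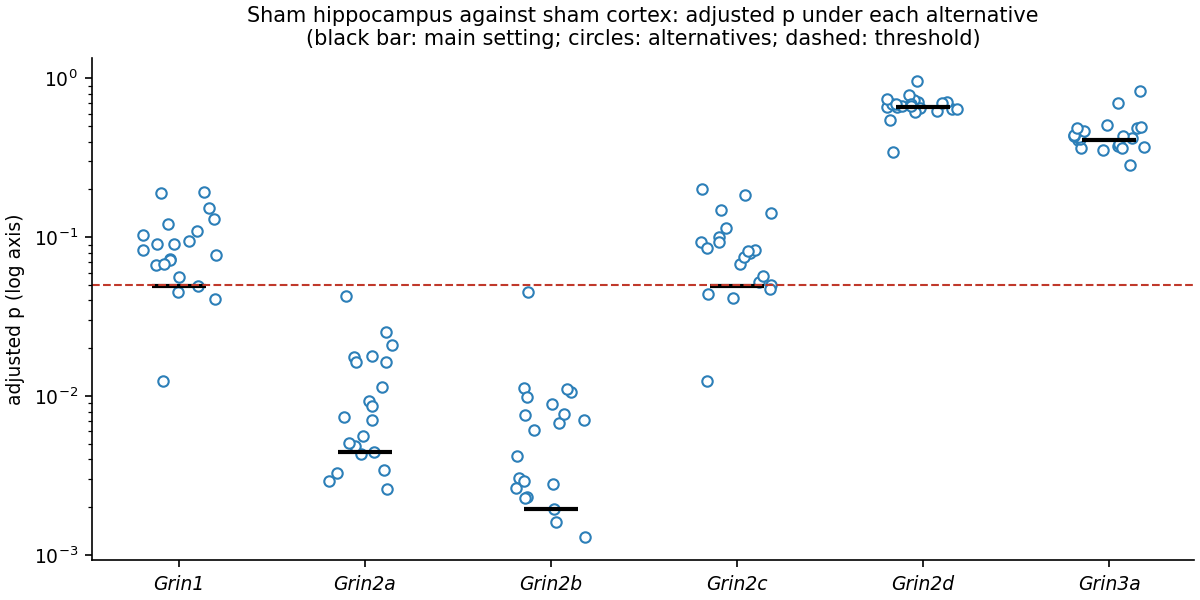
Adjusted p (vertical log axis) of each subunit gene for sham hippocampus against sham cortex by limma, in the setting reported (black bar) and under 21 alternatives (circles); the dashed line is the threshold of 0.05. Grin2a and Grin2b lie below it throughout, Grin1 and Grin2c straddle it, with 17 and 16 alternatives above, and Grin2d and Grin3a lie above it throughout.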

How the data were processed

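The authors deposited log2 signals, 1 value per transcript cluster or control probe set on each of 9 Clariom D arrays. RMA and limma are listed, with no version, in the submitters' processing notes. The genome build is not given in the sources used here. Control rows (1738 of 70580) were left out. The platform annotation gave 1 symbol for 23446 rows, and the brightest row was kept per gene. Genes entered the tests if their mean signal reached 4.99, the median over rows, which left 15522.

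The 3 group means were estimated together from the 9 arrays by lmFit and eBayes of limma 3.58.1 (R 4.3.3), with 1.46 prior and 6 residual degrees of freedom. Tests were two-sided, with Benjamini-Hochberg adjustment over the genes tested and a threshold of 0.05. Within-array differences were tested by exact permutation in SciPy 1.17.1. There is no read depth on arrays, so precision is limited by their number. The members, lists and tests were chosen with earlier results of these data known. The genes named are the members, up to 3 genes of each receptor-related list with the smallest p in each comparison, and the 3 tested genes most correlated with each member. Of the 5 lists, 78 of 84 genes were tested.

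Sham hippocampal and cortical arrays share numbers in their titles. The deviations from the group means of same-numbered arrays correlated at 0.416, 0.202 and 0.252, and they were taken as paired in an alternative fit, although such correlations are partly built in. Those of TFS and sham hippocampus correlated at -0.111, -0.287 and -0.025 and were not taken as paired.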

Additional observations from a re-analysis of the deposited data

How the results depend on the processing

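Of the 6 members, 4 passed between sham hippocampus and sham cortex; 2, Grin2a and Grin2b, passed without a filter on signal, with the 6 arrays of the comparison alone, after median centring, after quantile normalization, with eBayes trend and robust options, with the number as a fixed replicate block over all 9 arrays or over the 6 sham arrays only (chosen after seeing the data), and without both sham arrays numbered 1. With array weights 3 passed, and 4 with the number as a random replicate block over all 9 arrays. With 1 array left out 2 to 4 passed. Over all tested genes 929 were higher and 1002 lower. These counts were 581 and 630 with the 6 arrays alone, and 500 and 482 with the replicate block over the sham arrays. Without both sham arrays numbered 1 they were 649 and 679. With 1 array left out they were 591 to 1101 and 690 to 1082 (591 without sham hippocampal array 3, 595 without array 2). For TFS 0 members passed under any of 20 alternatives, and over all genes 0 were called except 1 higher with array weights and 1 lower without both sham arrays numbered 1. With the number as a replicate block, fixed or random, 0 members passed for TFS. The Grin2d difference after TFS turned to 0.011 with array weights and to 0.038 without sham array 1 or both arrays numbered 1, and ranged from -0.059 to 0.038 with 1 array left out. Between the regions it turned to -0.020 without sham hippocampal array 1 or both, and ranged from -0.020 to 0.078 with 1 array left out. Relative to Grin1, Grin2a after TFS ranged from -0.042 (without TFS array 3) to 0.064 with 1 array left out, and was -0.0076 without sham array 2. Grin2b relative to Grin2a ranged from -0.00026 (without sham array 3) to 0.062 (without TFS array 3). After quantile normalization Grin2a relative to Grin1 was 0.0043 and Grin2d -0.053. The cause of these shifts was not tested. Signals within the range of negative controls limit Grin2c, Grin2d and Grin3a, and Camk2d, Ddo and Grin3b among the listed genes named here. In the lists, mean signals lay in that range for 8 of 13 co-agonist and 6 of 20 transport genes. The same held for 5 of 24 kinase and signalling genes and 1 of 18 anchoring genes.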
